A study of Mus musculus with 24 samples.

Results

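The subunits of the mitochondrial respiratory chain and of ATP synthase were examined in mouse macrophages with and without Olfml3, a gene for a secreted glycoprotein of the olfactomedin family. Members were chosen by name, as the rows whose gene symbol begins with Ndufa, Ndufb, Ndufc, Ndufs, Ndufv, Uqcr, Cox4, Cox5, Cox6, Cox7, Cox8, Atp5, mt-Nd, mt-Co, mt-Cyb or mt-Atp. After 15 pseudogene symbols were left out, 108 of the 56691 gene rows of each table were members. They carry 107 symbols, because Atp5o stands on 2 gene identifiers, of which the second was listed at 0 and overlaps Donson. By role they comprise 7 nuclear core and 34 nuclear accessory subunits of complex I, 8 complex I assembly factors (the Ndufaf genes), 8 subunits of complex III, 20 of complex IV, the supercomplex factor Cox7a2l, 18 subunits of complex V and 12 genes of the mitochondrial genome. The names pass over mt-Cytb, the mitochondrial subunit of complex III, which is reported beside the members as another gene.

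RNA-seq was available for 8 groups of 3 libraries. RAW264.7 cells, a virus-transformed mouse macrophage line, and bone marrow-derived macrophages (BMDMs) were each wild type (Olfml3+/+) or Olfml3 knockout (Olfml3-/-), and each genotype was treated either with PBS or, for 4 h, with LPS at 100 ng/mL. The RAW264.7 knockout came from lentiviral sgRNAs followed by isolation of single-cell clones, and the sources used here do not give the number of clones sequenced. The BMDMs were grown in L929 cell supernatant from marrow of 8-week-old male C57BL/6 mice, with knockouts from a global CRISPR-Cas9 line. Nothing in the labels says whether libraries of a group came from separate cultures or mice, so the p-values measure only the spread between these libraries.

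The targeted gene was read in every library first. In BMDMs, Olfml3 was 0.61, 0.53 and 0.65 FPKM in wild type PBS and 0.03, 0.01 and 0.01 FPKM in knockout PBS. In RAW264.7 cells it went against the labels, at 0.19, 0.15 and 0.15 FPKM in wild type PBS but 0.65, 1.01 and 1.19 FPKM in the libraries labelled knockout with PBS, and 18.9, 18.8 and 18.3 FPKM in those labelled knockout with LPS. Every RAW264.7 direction is therefore a direction between libraries as labelled. Of 7 macrophage markers, 6 were above 1 FPKM in RAW264.7 cells, Mertk being at 0, and all 7 in BMDMs. The summed macrophage markers were 2722 to 2936 FPKM in RAW264.7 wild type libraries and 849 to 1272 FPKM in those labelled knockout, and 11643 to 17638 FPKM in BMDMs. Lists for T cells, B cells, NK cells, fibroblasts and erythroid cells each summed to at most 1.31 FPKM in any library, and a neutrophil list to 4.41 to 7.90 FPKM in BMDMs with Ly6g at 0. Library totals were 11638273 to 16478616 counts in RAW264.7 cells and 17121240 to 22873094 in BMDMs.

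Complexes I, III and IV pass electrons from NADH to oxygen and pump protons out of the mitochondrial matrix, and complex V, the ATP synthase, lets the protons return and makes ATP. All of them are built from proteins of both genomes: most subunits are encoded in the nucleus and imported, while a small set of membrane-embedded subunits is encoded in mitochondrial DNA. Macrophages exposed to LPS are known for a move from oxidative phosphorylation to glycolysis, and complex I is a known source of reactive oxygen species in these cells. In bulk RNA, fewer mitochondria per cell, less RNA per mitochondrion and fewer cells cannot be told apart.

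Mitochondrial genes have near-identical copies on chromosome 1 that the tables list as separate rows, which limits which members can be read. All 75-base stretches of each member's transcripts (GENCODE M21) were looked for in other genes. For mt-Co3, 709 of 710 stretches also occur in Gm28437, for mt-Co2 99.5% in Gm28661, for mt-Atp6 99.5% in Gm10925, for mt-Nd4l 98.7% in Gm10222 and for mt-Nd3 97.8% in Gm28438. The share was 61.5% for mt-Nd4, 39.8% for mt-Co1, 5.71% for mt-Nd2 and 1.66% for mt-Nd5, and no stretch of mt-Nd1, mt-Nd6, mt-Atp8 or mt-Cytb was shared. Counts of the members above 90% are therefore uncertain, while mt-Nd1 and mt-Nd6, and after them mt-Nd5 and mt-Nd2, are the least open to splitting with copies. mt-Atp8 is not placed with them, although no stretch was shared. It lies between mt-Co2 and mt-Atp6, whose copies Gm28661 (from 24653966) and Gm10925 (to 24653732) are neighbours on chromosome 1. The search covered annotated transcripts only, so an unannotated copy of mt-Atp8 between them would not show. Neighbours within the mitochondrial genome also overlap, mt-Atp8 with mt-Atp6 and, on opposite strands, mt-Nd6 with mt-Nd5. Whether counting used the strand is not stated, so reads of mt-Nd6 and reads from the strand opposite to it cannot be told apart. The starts of mt-Nd3 and its copy are shown because a single base, in capitals, is all that separates 345 aligned bases (T3C, counted from 1 at the transcript's first base):
mt-Nd3: atTaacctgtacactgttatcttcattaa
Gm28438: atCaacctgtacactgttatcttcattaa
Over all libraries mt-Nd3 averaged 5.50 FPKM and its copy 119 FPKM in RAW264.7 cells, against 1.62 and 1.48 FPKM in BMDMs.

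Nuclear respiratory genes are known targets of the factors NRF1, the ETS protein GABP, YY1 and ERRalpha. RefSeq promoter windows (GRCm38.p6, from 250 bases before to 50 after the start) matched 67 of the 88 nuclear subunit rows. On either strand, the NRF1 core GCATGCGC was present in 9 of the 67 windows, or 13.4%, against 3.05% of 27025 windows of all genes, and the YY1 motif AAGATGGC in 10, or 14.9%, against 3.19%. The ETS motif CCGGAAGT was in 5 windows, 7.46% against 4.31%, and the ERRalpha motif TCAAGGTCA in 1, that of Atp5g3, 1.49% against 0.466%. None of these motifs contains another, and at least 1 of them was found in 24 windows, 35.8% against 10.4%. Runs around the motif, in capitals, are shown for members whose values are described further on, Ndufa6, Ndufa8, Atp5k and Ndufs7:
Ndufa6: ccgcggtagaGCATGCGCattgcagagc
Ndufa8: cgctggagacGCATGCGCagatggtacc
Atp5k: tcactgcggcGCATGCGCctttctggct
Ndufs7: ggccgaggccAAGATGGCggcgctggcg
They lie in the windows chr15:82354242-82354541 (minus strand), chr2:36049289-36049588 (minus), chr5:108434350-108434649 (minus) and chr10:80249199-80249498 (plus), respectively. A match is a run of letters and was not tested as a binding site.

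FPKM, which counts fragments relative to exonic length and to the library total, allows levels of different genes to be set side by side. Over all RAW264.7 libraries the highest nuclear subunits of their complexes were Ndufa2 of complex I at 129.9 FPKM, the complex III hinge protein gene Uqcrh at 197 FPKM, Cox4i1 of complex IV at 332 FPKM and Atp5b, the catalytic beta subunit of ATP synthase, at 409 FPKM. In BMDMs the corresponding genes were Ndufa1 at 62.0 FPKM, Uqcrb at 59.2 FPKM, Cox4i1 at 133 FPKM and Atp5a1, the alpha subunit, at 171 FPKM. Among subunits that reached 1 FPKM in at least 1 library, the lowest means were those of Ndufs6b (1.01 FPKM), Uqcrc1 (60.7 FPKM), Cox4i2 (0.889 FPKM) and Atp5g1 (1.31 FPKM) in RAW264.7 cells, and Ndufs6b (1.21 FPKM), Uqcrq (18.2 FPKM), Cox6a2 (1.22 FPKM) and Atp5g1 (5.06 FPKM) in BMDMs. Median levels of the same subunits were 43.1, 109.8, 91.8 and 78.2 FPKM for complexes I, III, IV and V in RAW264.7 cells and 18.5, 36.8, 46.4 and 30.9 FPKM in BMDMs. Complex I subunits thus had the lowest median in both cell types.

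Isoform pairs showed the ubiquitous form in both cell types, and the testis- or muscle-associated forms Cox6b2, Cox7b2, Cox8b and Cox8c were among 8 members under 1 FPKM in all 24 libraries. Cox4i1 was 430.4, 409 and 408 FPKM in RAW264.7 wild type PBS and 144, 144 and 143 FPKM in BMDM wild type PBS, while the hypoxia- and lung-associated Cox4i2 did not exceed 1.76 FPKM. Cox6a1 read 364, 349 and 347 FPKM in RAW264.7 and 98.9, 105 and 108 FPKM in BMDM, in contrast to 1.18 to 1.79 and 1.19 to 1.34 FPKM for the heart and muscle form Cox6a2. For Cox7a2 the values were 184, 182 and 179 FPKM and 46.2, 52.2 and 50.9 FPKM, against 5.12 to 6.30 and 2.18 to 2.56 FPKM for the muscle form Cox7a1. The 3 genes of the identical c-ring subunit of ATP synthase had unequal values. Atp5g3 stood at 209.8, 202 and 206 FPKM in RAW264.7 and 47.2, 46.6 and 47.8 FPKM in BMDM. Atp5g2 stood at 3.53, 5.07 and 4.63 FPKM in RAW264.7 but 37.7, 37.8 and 36.4 FPKM in BMDM. Atp5g1 was 1.43 ± 0.0635 FPKM (SD, n = 3) in RAW264.7 and 5.70, 6.07 and 6.06 FPKM in BMDM, while its copy Gm10039, which shares 7.29% of its stretches, averaged 274 FPKM in RAW264.7 and 18.5 FPKM in BMDM. Of 79 nuclear subunits at a mean of at least 1 FPKM, 74 had the higher mean in RAW264.7 wild type PBS, and the other 5 were Atp5g1, Atp5g2, Atp5l, Cox7c and Ndufb4. These 5 share 7.29%, 35.8%, 6.16%, 19.6% and 17.2% of their stretches with other genes, while 48 of 96 nuclear members share none. The part of such sharing in their values was not tested. The tables were made separately, so this comparison between cell types carries no test.

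Summed over all nuclear subunits, the level was 8946, 8601 and 8648 FPKM in RAW264.7 wild type PBS, 8944, 5452 and 5305 FPKM in the libraries labelled knockout with PBS, 6955, 7102 and 7179 FPKM in wild type LPS and 4653, 4664 and 4758 FPKM in those labelled knockout with LPS. The mitochondrially encoded members summed to 20213, 20412 and 20410 FPKM, 18788, 21078 and 21174 FPKM, 17932, 17998 and 18912 FPKM, and 20746, 21218 and 20252 FPKM in the same order. Their ratio to the nuclear sum was 2.53 to 2.63 in wild type LPS and 4.26 to 4.55 in labelled knockout LPS, a 1.71-fold difference without overlap. With PBS the labelled knockout ratios were 2.10, 3.87 and 3.99 against 2.26, 2.37 and 2.36 in wild type, and these overlap because replicate 1 lay with the wild type. In BMDMs the nuclear sum was 2920, 2922 and 2898 FPKM in wild type PBS and 2925, 2947 and 2970 FPKM in knockout PBS, whereas the mitochondrial sum was 13603, 13162 and 13602 FPKM and 16713, 16674 and 16799 FPKM. The BMDM ratio was thus 1.23-fold higher in knockout with PBS and 1.18-fold higher with LPS, with no overlap in either case. With 3 libraries against 3, an exact permutation test cannot go under 0.10, so these ratios are given without a test.

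**Figure D1:**
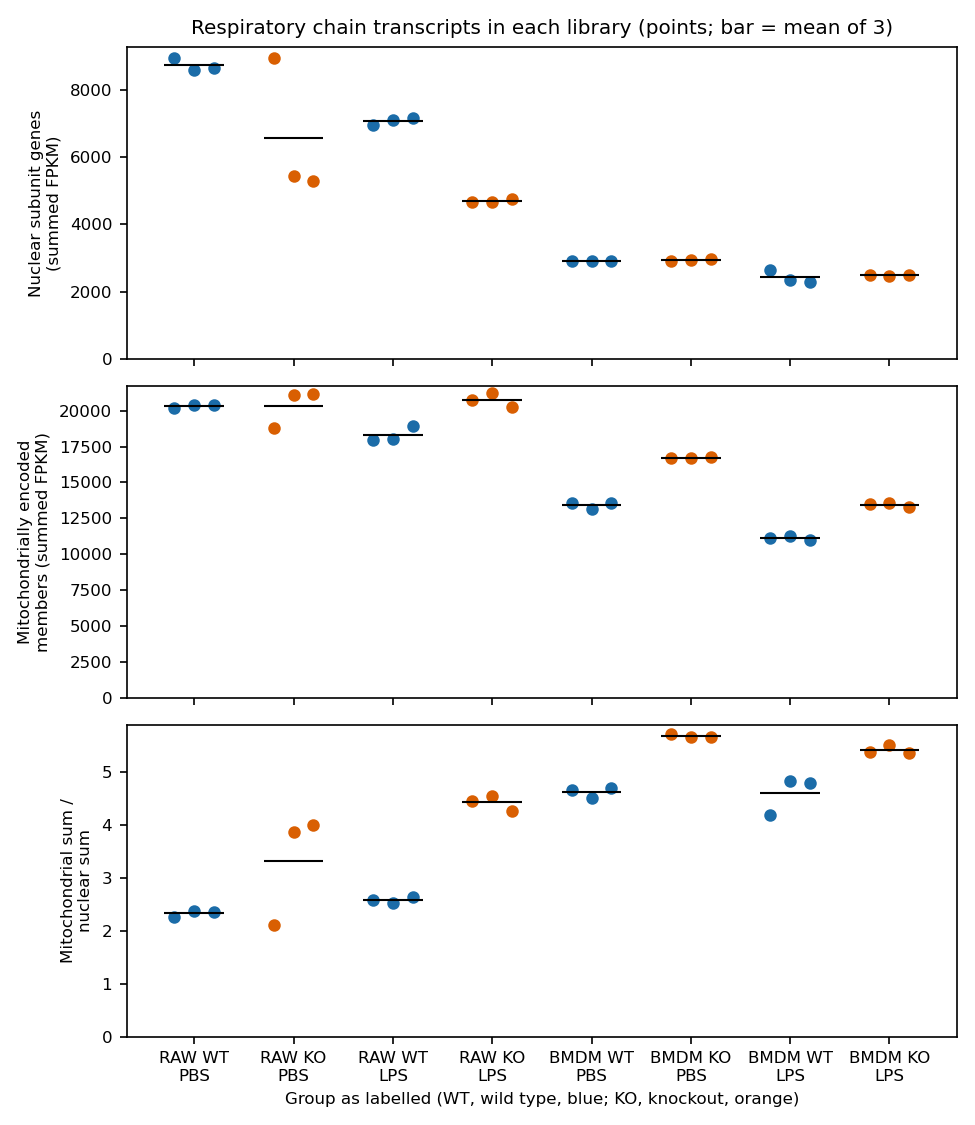
Summed FPKM of the nuclear subunits, summed FPKM of the mitochondrially encoded members, and the ratio of these sums, for each library of the 8 groups (points, with a bar at the mean of 3 libraries and RAW264.7 genotypes as labelled). In RAW264.7 cells the ratios of 4.26 to 4.55 in labelled knockout LPS stand above 2.53 to 2.63 in wild type LPS, and labelled knockout PBS replicate 1, at 2.10, lies with the wild type.

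Which subunits accompanied the knockout label in RAW264.7 cells was examined first with LPS, where the replicates lay together. A member counted as higher or lower where limma gave a fold of at least 1.5 with p under 0.05 after Benjamini-Hochberg adjustment. Fold changes are on log2(FPKM + 0.1), a scale that understates the change of low genes. In libraries labelled knockout, 45 of 104 tested members were lower and 3 were higher, where 7.60% of 26740 tested genes were lower and 9.73% higher. The median log2 fold change of the nuclear subunits was -0.62, against -0.02 for all expressed genes, and 73 of 79 expressed subunits were below 0. Among the mitochondrially encoded members the median was 0.02. In each complex the nuclear median lay below that of all genes, at -0.50 for the complex I core, -0.73 for its accessory subunits, -0.43 for its assembly factors, -0.57 for complex III, -0.52 for complex IV and -0.55 for complex V.

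Complex I held most of the lower members. Of its 34 accessory subunits 23 were lower, and of the 7 nuclear core subunits 3, namely the flavoprotein genes Ndufv1 (log2 fold change -0.66) and Ndufv2 (-0.62) and the iron-sulfur subunit Ndufs8 (-0.62). Ndufa2, an accessory subunit of the NADH-oxidizing arm, was 147, 138 and 147 FPKM in wild type LPS and 63.7, 67.0 and 84.2 FPKM in labelled knockout LPS, a log2 fold change of -1.01 ± 0.25 (SE) with a limma adjusted p of 0.018. Ndufb10, of the membrane arm, was 62.3, 62.0 and 63.6 FPKM against 34.0, 32.1 and 35.6 FPKM (-0.88 ± 0.18, limma adjusted p = 0.00839). The groups did not overlap for either gene, and neither did those of Ndufa8, at 103, 106 and 112 FPKM against 55.5, 61.5 and 59.7 FPKM (-0.86 ± 0.20, limma adjusted p = 0.0133). Ndufb7, another membrane-arm subunit, fell by 0.92 ± 0.20 on the log2 scale from 16.1, 17.4 and 18.8 FPKM to 8.80, 9.48 and 9.17 FPKM. Ndufc1 stood at 29.2, 31.1 and 31.4 FPKM against 17.4, 15.7 and 17.0 FPKM. Among the assembly factors, which build complex I but are not part of it, Ndufaf8 (-0.84), Ndufaf7 (-0.76) and Ndufaf3 (-0.75) were lower, 3 of 8.

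In the other complexes fewer members passed. Complex III had 3 of 8 lower, the small subunits Uqcr11 (-0.81), Uqcr10 (-0.73) and Uqcrh (-0.67). Complex IV had 4 of 17 tested, Cox7a2 (-0.78), Cox6b1 (-0.67), Ndufa4 (-0.65), which was named for complex I but is a subunit of complex IV, and Cox5b (-0.59). Cox7a2l, which joins complexes III and IV into supercomplexes, fell by 0.80 on the log2 scale. In complex V, 8 of 17 were lower, from Atp5k and Atp5e (both -0.85) to the delta subunit Atp5d (-0.61), and 1 was higher. The higher gene, Atp5l, was 5.10, 5.31 and 5.08 FPKM against 8.07, 8.26 and 7.39 FPKM (0.60 ± 0.10, limma adjusted p = 0.00252), and its copy Gm10221, which shares 6.16% of its stretches, was 124, 132 and 121 FPKM against 136, 141 and 132 FPKM.

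Of the 12 mitochondrial members mt-Atp8 and mt-Nd5 passed, both higher, and splitting of mt-Atp8 reads with an unannotated copy was not tested. The ATP synthase subunit mt-Atp8 (MT, 7766 to 7969) was 14.2, 11.3 and 14.9 FPKM in wild type LPS and 27.0, 26.8 and 27.2 FPKM in labelled knockout LPS (1.01 ± 0.18, limma adjusted p = 0.00378). mt-Nd5 (MT, 11742 to 13565), a proton-pumping subunit of complex I, was 923, 891 and 961 FPKM against 1548, 1608 and 1511 FPKM (0.75 ± 0.19, limma adjusted p = 0.0179). mt-Nd1, in contrast, was 5047, 5108 and 5434 FPKM against 5378, 5469 and 5285 FPKM, which overlap. mt-Nd6, the member read from the other DNA strand, was 1544, 1633 and 1702 FPKM against 1216, 1292 and 1248 FPKM, lower in all 3 libraries but short of the threshold (-0.38, limma adjusted p = 0.0722). mt-Cytb was 4246, 4321 and 4559 FPKM against 5415, 5433 and 5289 FPKM (0.30, limma adjusted p = 0.0164, under the fold threshold).

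**Figure D2:**
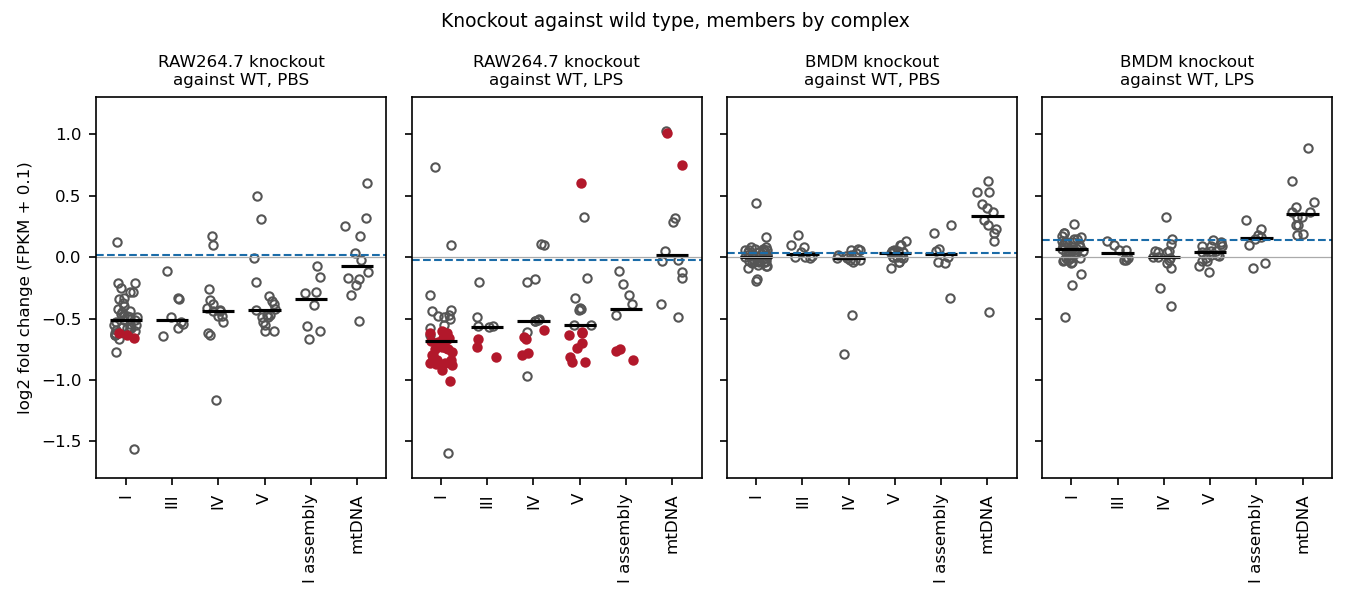
Log2 fold change (FPKM + 0.1) of each member between knockout (as labelled) and wild type libraries, by complex, in RAW264.7 cells and in BMDMs under either treatment (filled red points passed the threshold, open grey points did not, black bars are medians of the group, and the dashed blue line is the median of all expressed genes). In RAW264.7 cells with LPS the nuclear groups have medians from -0.68 (complex I) to -0.43 (its assembly factors) and the mitochondrial genes 0.02, while in BMDMs the nuclear complexes lie close to the median of all genes, with a sign that turns with the scaling, and the mitochondrial genes above it.

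Gene size moved with this comparison. Over all expressed genes the median log2 fold change was -0.13 at exonic sizes under 500 bases, -0.42 at 500 to 1000, -0.41 at 1000 to 2000, -0.20 at 2000 to 4000, 0.07 at 4000 to 6000 and 0.39 from 6000 bases. Nuclear subunits are short, with a median exonic size of 1372 bases, and in the same classes their medians were -0.19 (4 genes), -0.74 (18), -0.67 (30), -0.55 (17), -0.57 (7) and 0.10 (3). After the values of each library were adjusted for exonic size and limma was refitted, 7 members were lower and 5 higher, against 7.16% and 9.05% of all genes. The nuclear median was then -0.31 and the mitochondrial median 0.40. The 7 were Ndufb7 (-0.94), Ndufb2 (-0.83), Ndufab1 (-0.72), Ndufa2 (-0.65), Ndufb5 (-0.66), Ndufaf7 (-0.65) and Atp5j2 (-0.60), and the 5 were mt-Nd5 (1.10), mt-Atp8 (0.96), mt-Nd2 (0.70), the c-ring gene Atp5g2 (0.69) and mt-Co1 (0.65). The sum of FPKM over all genes also differed, at 309687 to 311278 in labelled knockout LPS and 357349 to 367540 in wild type libraries, summed macrophage markers were 849 to 882 FPKM against 2722 to 2863 FPKM, and genes of the cytosolic ribosome, which are short as well, had 17 of 55 lower with a median of -0.56. The part of gene size or of these other shifts in the members' differences was not tested. When any of the 6 LPS libraries of this comparison was left out, 13 to 18 members passed, against 48 with all.

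**Figure D3:**
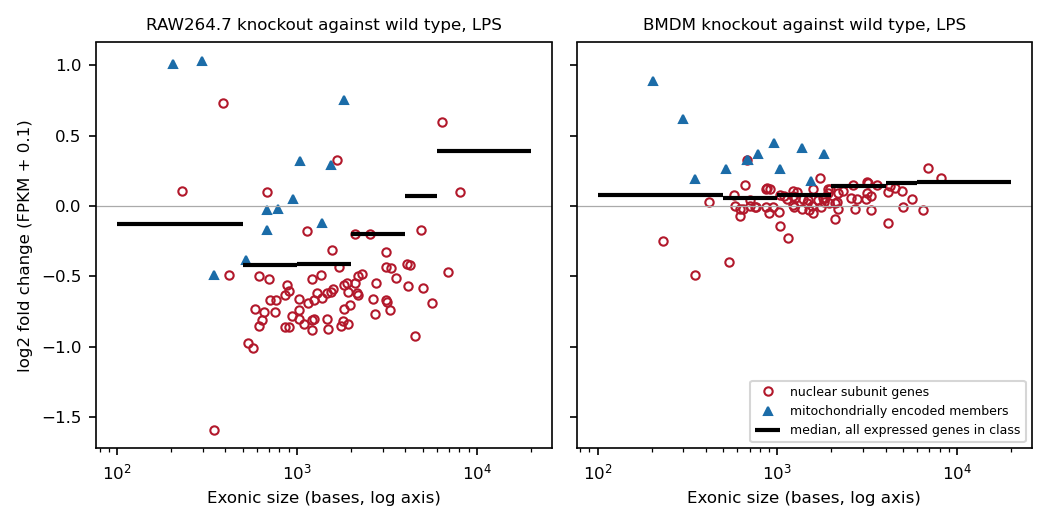
Log2 fold change (FPKM + 0.1) between knockout and wild type with LPS against exonic size in bases (log axis), for RAW264.7 cells as labelled and for BMDMs (red circles, nuclear subunits; blue triangles, mitochondrially encoded members; black bars, medians of all expressed genes in each size class). In RAW264.7 cells the class medians are -0.13 under 500 bases, lowest at 500 to 1000 bases (-0.42) and highest from 6000 bases (0.39), and in BMDMs they stay between 0.06 and 0.17.

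With PBS the same label comparison in RAW264.7 cells depended on 1 library. Replicate 1 of the labelled knockout PBS group stood apart from replicates 2 and 3. The chi-square of its gene counts, divided by the degrees of freedom, was 80.32 against replicate 2 and 81.06 against replicate 3, and 2.282 between the latter. Its nuclear sum of 8944 FPKM lay within the wild type PBS range of 8601 to 8946 FPKM. Macrophage markers did not follow, as they summed to 1053 to 1272 FPKM in labelled knockout PBS and 2907 to 2936 FPKM in wild type PBS. Olfml3 in replicate 1 was also above the wild type PBS libraries. With all libraries 3 members were lower and 1 higher, against 3.77% and 4.79% of all genes, while the nuclear median was -0.48, the mitochondrial median -0.07 and that of all genes 0.02. The lower genes were the complex I accessory subunits Ndufc2, Ndufa7 and Ndufa6. Ndufa6 was 39.0, 40.9 and 41.5 FPKM in wild type PBS and 34.3, 24.2 and 21.8 FPKM in labelled knockout PBS (-0.62 ± 0.15, limma adjusted p = 0.0303). Ndufc2 was 174, 154 and 169 FPKM against 148, 96.0 and 80.5 FPKM, and Ndufa7 46.0, 38.2 and 41.6 FPKM against 35.5, 25.9 and 21.3 FPKM, with replicate 1 nearest to the wild type for each of them. The higher gene was Ndufa4l2 (1.43), which is induced by hypoxia elsewhere and was under 1 FPKM in all libraries here. Leaving out replicate 1 gave 62 lower and 2 higher members, where 8.11% of all genes were lower, with medians of -0.82 for accessory and -0.60 for core subunits of complex I, -0.80 for complex III, -0.72 for complex IV and -0.64 for complex V. The higher share of all genes was then 12.7%. The 2 higher were again mt-Atp8 (0.77) and mt-Nd5 (0.59), and mt-Nd6 (-0.70) was the mitochondrial member among the lower, each by limma. Leaving out any wild type PBS library, or labelled knockout PBS replicate 2 or 3, gave 0 members, and leaving out any LPS library 1 or 2. Adjusted for exonic size, 1 member was higher and 0 were lower with all libraries (4.28% and 3.80% of all genes), and 6 were higher and 10 lower without replicate 1 (13.0% and 7.23%).

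In knockout BMDMs the nuclear subunits stood close to their wild type levels. By limma 0 of 103 tested members passed the threshold in either condition, where 1.82% of 26973 genes passed with PBS and 4.76% with LPS. At an unadjusted limma p under 0.05 there were 14 of 103 members with PBS and 18 with LPS, where 14.7% and 27.4% of all genes were. edgeR and DESeq2 each called 1 member with PBS, mt-Co3, and 0 with LPS. With PBS the medians were 0.02 for the complex I core, -0.00 for accessory subunits, 0.03 for complex III, 0.00 for complex IV and 0.03 for complex V, against 0.03 for all expressed genes. With LPS the nuclear median was 0.05, against 0.14 for all. Their signs turned with the scaling, to -0.04 with PBS and -0.11 with LPS under median-ratio scaling, where all genes stood at -0.01.

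Most mitochondrial genes had higher values in knockout BMDMs, though none passed the threshold in the limma fit. Their median log2 fold change was 0.33 with PBS, with 11 of 12 above 0 (from -0.45 for mt-Atp8 to 0.62 for mt-Co3, neither past an adjusted p of 0.05), and 0.35 with LPS, with 12 of 12 above 0. By edgeR, DESeq2, median-ratio scaling and the adjustment for exonic size this median lay between 0.29 and 0.31 with PBS and between 0.19 and 0.25 with LPS. By adjusted p alone, 5 members were higher with PBS, all mitochondrial, where 2.31% of genes were, and 11 with LPS, 7 of them mitochondrial, where 13.6% were. mt-Nd1 was 1821, 1753 and 1831 FPKM in wild type PBS and 2405, 2392 and 2466 FPKM in knockout PBS (0.43 ± 0.04, limma adjusted p = 0.000233). With LPS it was 1528, 1543 and 1503 FPKM against 2084, 2103 and 2072 FPKM (0.45 ± 0.04, limma adjusted p = 8.61e-05). The genotypes did not overlap in either condition, and the spread within each group of 3 was small beside the gap.

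Other complex I subunits of the mitochondrial genome behaved alike. mt-Nd5 was 1437, 1408 and 1453 FPKM in wild type PBS and 1883, 1874 and 1904 FPKM in knockout PBS (0.40, limma adjusted p = 0.00155), and 0.37 higher on the log2 scale with LPS (limma adjusted p = 0.000826). mt-Nd4, with 61.5% of its stretches shared, was 835, 778 and 814 FPKM against 1172, 1171 and 1153 FPKM (0.53, limma adjusted p = 0.000113). mt-Nd2 was 1168, 1131 and 1164 FPKM against 1356, 1353 and 1351 FPKM, a smaller difference (0.23, limma adjusted p = 0.00741). mt-Nd6 was 1079, 1025 and 1102 FPKM against 1303, 1321 and 1316 FPKM with PBS (0.30, limma adjusted p = 0.0562), and passed 0.05 only with LPS (0.26, limma adjusted p = 0.0353). mt-Co1, the catalytic subunit of complex IV, was 7201, 7005 and 7172 FPKM against 8505, 8485 and 8536 FPKM (0.26, limma adjusted p = 0.00417). With LPS mt-Co1 was 5565, 5681 and 5642 FPKM against 6383, 6444 and 6292 FPKM (0.18, limma adjusted p = 0.0087). Members that share nearly all stretches with a copy were noisier, as mt-Co3 shows at 11.7, 11.6 and 15.4 FPKM against 27.9, 18.5 and 14.9 FPKM, which overlap.

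Values of other mitochondrial transcripts stood beside these. mt-Cytb was 1948, 1876 and 1946 FPKM in wild type PBS and 2957, 2996 and 3032 FPKM in knockout PBS (0.64, limma adjusted p = 1.40e-05), and 1644, 1707 and 1679 FPKM against 2478, 2542 and 2483 FPKM with LPS (0.58, limma adjusted p = 2.69e-05). The small ribosomal RNA mt-Rnr1 went the other way, from 1265, 1373 and 1321 FPKM in wild type PBS to 438, 436 and 435 FPKM in knockout PBS (-1.60, limma adjusted p = 5.62e-07) and by -1.31 with LPS. The large ribosomal RNA mt-Rnr2 had a log2 fold change of -0.38 with PBS and -0.42 with LPS. The libraries were made from poly(A) RNA, in which ribosomal RNA is a remnant, and what the selection contributes was not tested. In RAW264.7 cells mt-Rnr1 had a log2 fold change of -0.16 with PBS and -0.30 with LPS, neither past the threshold.

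**Figure D4:**
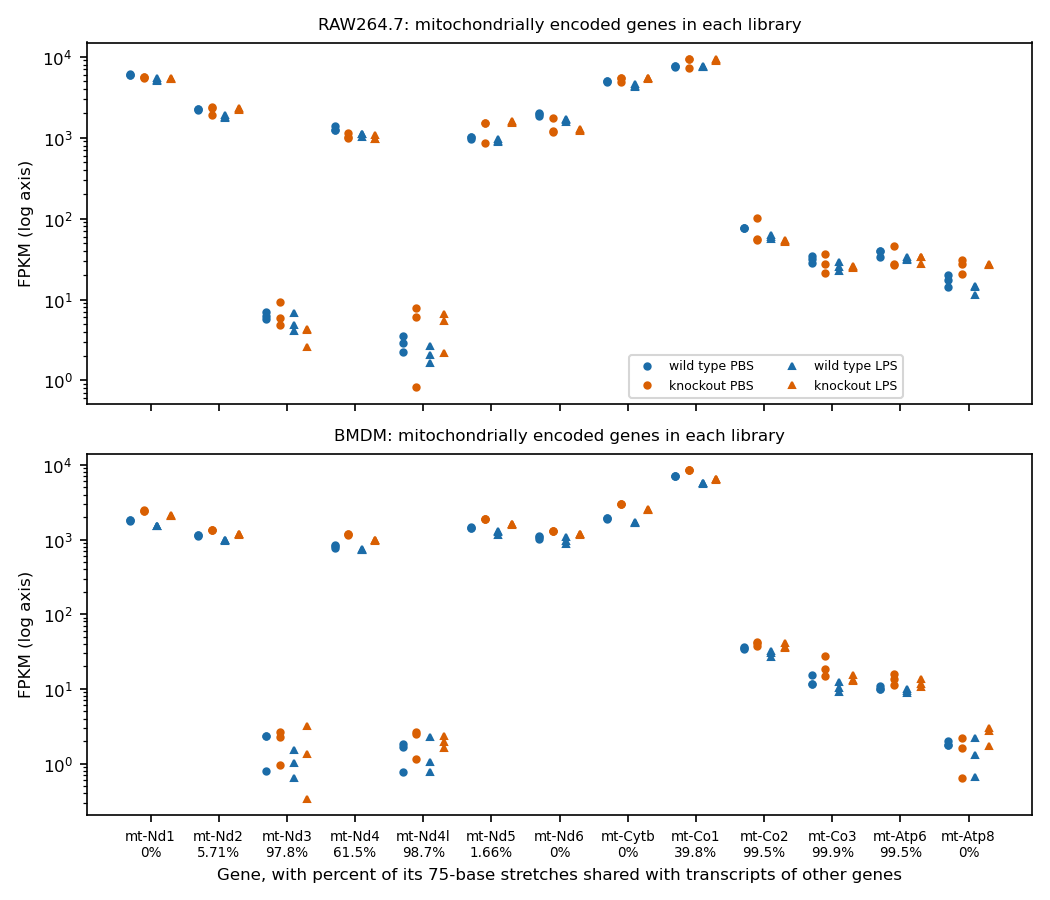
FPKM (log axis) of each mitochondrially encoded member and mt-Cytb in each library of RAW264.7 cells (genotype as labelled) and BMDMs, with the percent of 75-base stretches shared with another gene under each name (blue, wild type; orange, knockout; circles, PBS; triangles, LPS). In BMDMs the knockout libraries of mt-Nd1, at 2072 to 2466 FPKM, lie above those of the wild type, at 1503 to 1831 FPKM, while the members with over 90% shared stretches sit far lower and scatter more. With 0% shared, mt-Atp8 also sits far lower, at a mean of 1.80 FPKM in BMDMs.

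LPS alone was compared with PBS in wild type cells. In RAW264.7 cells 4 members were lower and 0 higher, where 12.5% of genes were lower, and the nuclear and mitochondrial medians of -0.30 and -0.28 lay near the -0.21 of all expressed genes. Median-ratio scaling moved that median to 0.03 and the nuclear and mitochondrial medians to -0.06 and -0.04. Ndufv3, an accessory subunit of the NADH-oxidizing arm, was 24.4, 22.5 and 23.8 FPKM with PBS and 11.7, 13.4 and 13.0 FPKM with LPS (-0.89 ± 0.14, limma adjusted p = 0.00122). Ndufs7, which carries the last iron-sulfur cluster before ubiquinone, was 58.4, 56.8 and 57.0 FPKM against 32.1, 34.2 and 35.4 FPKM (-0.76 ± 0.18, limma adjusted p = 0.0115). Cox7a2l was 125, 115 and 121 FPKM against 73.7, 74.9 and 72.9 FPKM (-0.70 ± 0.18, limma adjusted p = 0.017), and the assembly factor Ndufaf3 was 13.3, 13.6 and 14.7 FPKM against 7.19, 8.99 and 9.01 FPKM. Under DESeq2, edgeR and median-ratio scaling 1 member was lower, where 8.09%, 8.76% and 8.04% of genes were (by edgeR it was Ndufv3, at -0.67), and adjusted for exonic size 0, where 7.60% were.

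In BMDMs FPKM values with LPS were lower for most expressed genes, so the members are given relative to their median. The median of all expressed genes was -0.73, while the nuclear subunits stood at -0.31 and the mitochondrial members at -0.24. On this scale 17 members were lower and 1 higher, where 32.5% and 7.94% of genes were, yet under median-ratio scaling, which put the median of all genes at 0.06, the nuclear median was 0.49 and the mitochondrial median 0.56, and 24 members were higher and 1 lower, against 15.0% and 16.3% of all genes. By DESeq2 25 were higher and 2 lower (15.1% and 15.6% of all genes) and by edgeR 15 and 2 (14.6% and 18.3%). Adjusted for exonic size, 12 of 103 were higher and 2 lower, fewer in either direction than the 33.4% and 14.1% of all genes. Relative to the median of all genes, the nuclear subunits were therefore higher by 0.41 on the deposited scale and by 0.43 under median-ratio scaling. Adjusted for exonic size they stood at 0.31, against 0.04 for all genes. Gene size moved with this comparison too, as the median of all expressed genes was -0.40 at 500 to 1000 bases and -0.80 from 6000. Nuclear subunits lay above other genes in each size class, at -0.33 against -0.41 from 500 to 1000 bases and -0.27 against -0.79 from 2000 to 4000. The part of gene size was not tested. Wild type LPS replicate 1 stood apart from replicates 2 and 3 by the same chi-square measure (10.38 and 8.495, against 4.755 between them), and without it 25 members passed on the deposited scale, against 18 with it.

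The complexes had different medians in this response, a difference that was not tested. Complex III, at a median of -0.18, and complex IV, at -0.23, had no member past the threshold, and complex V, at -0.26, had Atp5g1 (-0.59), which turned to 0.19 under median-ratio scaling. The complex I core (-0.67, 4 of 7 lower) and the assembly factors (-0.62, 4 of 8 lower) lay near the median of all genes, and the accessory subunits of complex I at -0.42, with 7 of 33 lower and 1 higher. Adjusted for exonic size, where all genes stood at 0.04, the medians were 0.15 for the core, 0.22 for accessory subunits, -0.02 for assembly factors, 0.46 for complex III, 0.36 for complex IV and 0.47 for complex V. In that setting 0 core subunits passed, 2 accessory, 2 complex III, 3 complex IV and 5 complex V subunits were higher, and 2 assembly factors were lower. The genes farthest down were assembly factors. Ndufaf7, an arginine methyltransferase, was 2.77, 3.27 and 3.52 FPKM with PBS and 0.72, 0.73 and 0.89 FPKM with LPS (-1.90 ± 0.12, limma adjusted p = 4.11e-07). Ndufaf4 was 4.34, 4.29 and 4.20 FPKM against 1.86, 1.56 and 1.47 FPKM (-1.35, limma adjusted p = 3.40e-07), and Ndufaf6 2.87, 3.22 and 3.25 FPKM against 1.41, 1.36 and 1.23 FPKM. By edgeR, with its TMM scaling, Ndufaf7 (-1.32) and Ndufaf4 (-0.68) also passed. Ndufs7 was 12.5, 13.1 and 13.4 FPKM against 6.14, 6.70 and 6.38 FPKM (-1.01 ± 0.06, limma adjusted p = 1.22e-07), but -0.31 by edgeR. Ndufv3, at 12.3, 12.1 and 12.4 FPKM against 7.38, 6.44 and 6.69 FPKM, and Cox7a2l, at 80.6, 78.0 and 75.9 FPKM against 46.7, 43.2 and 41.8 FPKM, passed on the deposited scale in both cell types, as Ndufs7 did, and by edgeR Ndufv3 passed in RAW264.7 cells only.

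Ndufb1, a small membrane-arm subunit, rose under every scaling tried. It was 25.6, 28.9 and 27.0 FPKM in BMDM wild type PBS and 65.9, 55.8 and 55.6 FPKM in wild type LPS (1.12 ± 0.07, limma adjusted p = 4.10e-07). Log2 fold changes were 1.68 to 1.93 by edgeR (1.83), DESeq2, median-ratio scaling and the adjustment for exonic size. In the knockout it was 26.5, 27.0 and 26.3 FPKM with PBS and 49.8, 49.8 and 51.4 FPKM with LPS. Its neighbour Cpsf2, with which it shares 6.05% of its stretches, was 16.0, 16.5 and 15.8 FPKM with PBS and 21.1, 22.0 and 21.7 FPKM with LPS. In RAW264.7 cells no such difference was seen, as edgeR gave Ndufb1 a log2 fold change of 0.02.

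**Figure D5:**
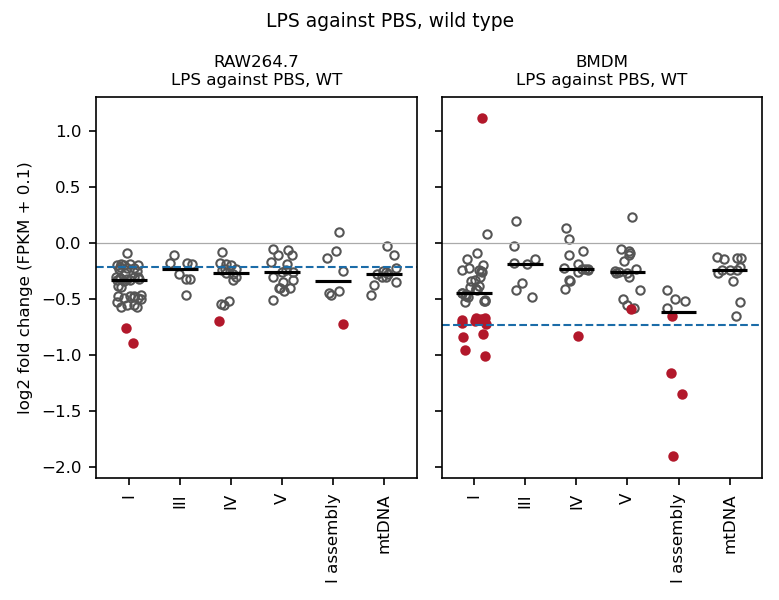
Log2 fold change (FPKM + 0.1) of each member between LPS and PBS in wild type RAW264.7 cells and BMDMs, by complex (filled red points passed the threshold, open grey points did not, black bars are medians of the group, and the dashed blue line is the median of all expressed genes). In BMDMs the medians lie between -0.62 (complex I assembly factors) and -0.18 (complex III), with complex I at -0.45, above the median of all genes at -0.73, and under median-ratio scaling the nuclear and mitochondrial medians turn to 0.49 and 0.56.

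Whether the response to LPS depended on genotype was tested with the interaction of both factors. By limma, edgeR and DESeq2 alike 0 members passed in either cell type, where limma called 1.95% of genes in RAW264.7 cells and 2.93% in BMDMs. At an unadjusted limma p under 0.05 there were 2 members in each, where 10.2% and 18.3% of all genes were. The nuclear and mitochondrial medians were -0.14 and 0.18 in RAW264.7 cells, where all genes stood at -0.02, and the nuclear median was 0.09 without labelled knockout PBS replicate 1. In BMDMs they were 0.04 and -0.00, where all genes stood at 0.11. By adjusted p alone, the complex I assembly factor Ndufaf6 passed in BMDMs (0.49, limma adjusted p = 0.031).

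Other genes of the pathway were read from lists. In RAW264.7 cells with LPS, labelled knockout libraries had 2 of 4 complex II subunits lower, Sdhb (-0.66) and Sdhc (-0.59), which complex II uses to pass electrons from succinate to ubiquinone. Of all genes 7.60% were lower and 9.73% higher in that comparison. The adjustment for exonic size, which left 7 members lower, is not given here for the lists. Complex IV assembly factors had 3 of 18 lower, led by Cox20 (-1.06), a chaperone of COX2, complex III assembly 2 of 6, led by Uqcc2 (-1.13), and complex II assembly 1 of 4, Sdhaf4 (-0.96). Of the other complex I assembly factors 1 of 8 was lower, Nubpl (-0.70), and 1 higher, Foxred1 (0.61). The ATP synthase inhibitor Atpif1 was the 1 of 4 complex V assembly and inhibitor genes that was lower (-0.73), and cytochrome c (Cycs, -0.40) did not pass. The mitochondrial ribosome had 15 of 49 lower, genes of mitochondrial DNA and RNA upkeep 0 of 16, and of 8 transcription regulators 2 were higher, the coactivators Ppargc1b (2.00) and Pprc1 (0.87). In knockout BMDMs with LPS, Coa7 (0.60), a complex IV assembly factor, and the nuclear receptor Esrra (0.84) were higher, as was 1 gene of the cytosolic ribosome, and mt-Rnr1 was the listed gene that was lower. There 4.76% of all genes passed in either direction.

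The same lists in BMDM wild type cells with LPS moved down on the deposited scale, as did the median of all genes. Complex II had 3 of 4 lower, complex III assembly 5 of 6, the other complex I assembly factors 5 of 8, upkeep genes 9 of 16, the mitochondrial ribosome 30 of 49 and the cytosolic ribosome 8 of 55. Of all genes 32.5% were lower. Adjusted for exonic size, complex II had 0 lower, complex III assembly 3 lower, the other complex I assembly factors 2 higher and 3 lower, upkeep genes 5 higher and 2 lower, the mitochondrial ribosome 7 higher and 8 lower, and the cytosolic ribosome 4 higher. In that setting 33.4% of all genes were higher and 14.1% lower, and several of these lists stood near or under those shares. Genes that rose against that shift were Cycs, from 16.5, 16.5 and 16.2 FPKM to 33.6, 29.5 and 28.6 FPKM (0.89), the copper chaperone Sco1 (2.27), Cox18 (1.02), the RNA exonuclease Pnpt1 (1.68), the transcription elongation factor Tefm (0.97) and Ppargc1b (1.36). Nmes1 (AA467197), an Ndufa4 paralogue known to be induced by LPS and to take the place of Ndufa4 in complex IV, was 0.56, 0.95 and 1.21 FPKM with PBS and 148, 121 and 118 FPKM with LPS in wild type BMDMs (7.05, limma adjusted p = 2.39e-08). In knockout BMDMs with LPS it was 76.0, 71.3 and 70.6 FPKM, lower than each wild type library, with a log2 fold change of -0.82 that limma did not call (limma adjusted p = 0.113) and edgeR did (-0.97). It did not exceed 0.32 FPKM in RAW264.7 cells.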

How the data were processed

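Trizol RNA was selected for poly(A) and sequenced as paired ends. Per the labels the genome was mm10. The sources used here name no aligner or counting program. Gene coordinates are printed as the deposited tables give them, apart from promoter windows. The authors deposited raw counts and FPKM per gene with exonic sizes, 1 table for each of 2 cell types, and no sample was pooled. Groups were taken from the titles, since the genotype field of 12 of the 24 samples contradicts them. The members and the gene lists were chosen with earlier results of these data known.

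From the deposited FPKM, log2(FPKM + 0.1) was fitted across all genes above 0 in any library of the cell type with limma 3.58.1 (R 4.3.3), with 1 model of 4 groups for each cell type, after the test and thresholds of the study (adjusted p under 0.05, fold of at least 1.5). A mean of at least 1 FPKM counted as expressed. The rule for named genes took each mitochondrial member, up to 5 called members with the largest rise and fall per comparison, members called the same way in both cell types, isoform sets (with Nmes1), and the highest and lowest subunit of each complex. Other called members, copies and neighbours were chosen after their values were seen. Alternatives were edgeR 4.0.16, DESeq2 1.42.0, median-ratio scaling, scaling without the mitochondrial genome, a pseudocount of 1, a filter at 1 FPKM in 3 libraries, a replicate block, leaving out each library and, added after the data were seen, a lowess adjustment for exonic size (span 0.3). The latter took each library's deviations from the gene means, fitted them on exonic size over expressed genes and subtracted the fit. The limma model was then refitted. The scripts were tested on simulated data. Python 3.11.15, pandas 2.3.3 and numpy 2.4.6 were used for the rest.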

Additional observations from a re-analysis of the deposited data

Results flagged for a closer look

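For the members below the knockout comparison had opposite signs in RAW264.7 cells (genotype as labelled) and BMDMs, with no overlap of the genotypes in either cell type. The difference itself was not tested, because the tables were made separately. How many of all genes met this rule was not counted, so the list cannot be set against them. Values are the RAW264.7 log2 fold change less that of BMDMs.

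With PBS these were the mitochondrial genes mt-Nd4 at -0.84 (-0.31 in RAW264.7 and 0.53 in BMDMs), mt-Nd6 at -0.82 (-0.52 and 0.30) and mt-Nd1 at -0.55 (-0.12 and 0.43). From ATP synthase, Atp5d was at -0.63 (-0.53 and 0.10) and Atp5b at -0.44 (-0.38 and 0.06).

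With LPS most were nuclear complex I subunits, namely Ndufb7 at -1.04 (-0.92 and 0.13), Ndufb8 at -0.84 (-0.67 and 0.17), Ndufv1 at -0.81 (-0.66 and 0.15), Ndufab1 at -0.73 (-0.47 and 0.27) and Ndufs7 at -0.63 (-0.43 and 0.20). Atp5b was at -0.57 (-0.42 and 0.14) and Atp5a1 at -0.42 (-0.33 and 0.09). The mitochondrial members were mt-Nd6 at -0.64 (-0.38 and 0.26) and mt-Co2 at -0.49 (-0.17 and 0.33). Several of these signs turned with the setting. Adjusted for exonic size, mt-Nd1 with PBS was at 0.16 and mt-Co2 with LPS at 0.21 in RAW264.7 cells, so both cell types then lay above 0. In BMDMs with LPS, Ndufb7, Atp5b, Atp5a1 and Ndufv1 were at -0.05, -0.03, -0.07 and -0.00 with that adjustment and at -0.03, -0.01, -0.06 and -0.01 under median-ratio scaling, so both cell types then lay at or below 0.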

How the results depend on the processing

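Counts of members past the threshold depended on the setting. Shares of all genes are given in the sections above for some settings only. Where they are missing, a count is not read as a result about the members. For RAW264.7 labelled knockout with PBS (4) they were 15 by DESeq2 and by edgeR, 17 with the FPKM filter, 8 by adjusted p alone, 1 adjusted for exonic size (that member being higher) and 16 so adjusted without replicate 1, and 0 to 64 when libraries were left out singly. With LPS (48) exonic size left 12, of which 7 had passed before, and leaving out libraries gave 13 to 51. For LPS in wild type RAW264.7 cells (4) DESeq2, edgeR and median-ratio scaling gave 1, exonic size 0, adjusted p alone 11 and left-out libraries 2 to 4. In knockout BMDMs with PBS (0) DESeq2 and edgeR gave 1 (mt-Co3, higher), the filter 1, adjusted p alone 5 and left-out libraries 0 to 1. With LPS (0) adjusted p alone gave 11 and for the BMDM interaction (0) it gave 1.

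For LPS in wild type BMDMs (18) DESeq2 gave 27, edgeR 17, median-ratio scaling 25 and exonic size 14, each with most members higher, adjusted p alone 68 and left-out libraries 16 to 25. Members that were lower there turned positive under DESeq2, exonic size, edgeR and median-ratio scaling: Atp5g1 (0.20, 0.27, 0.11, 0.19), Ndufb8 and Ndufs1 (both 0.12, 0.15, 0.03, 0.12) and Ndufv1 (0.13, 0.15, 0.04, 0.13). Under all of these but exonic size, Ndufa8 (0.12, 0.02, 0.11), Ndufb11 (0.11, 0.01, 0.10), Ndufs8 (0.10, 0.01, 0.09) and Ndufaf8 (0.14, 0.05, 0.14) turned, Ndufb10 did by DESeq2 and median-ratio scaling (both 0.09), and Ndufab1 with exonic size (0.03). Scaling without the mitochondrial genome gave 20 members, 19 of them lower. By adjusted p alone 65 members were lower and 3 higher, where 10829 and 2849 of 26973 tested genes were.

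The ratio of mitochondrial to nuclear sums was also compared between groups, as a fold, with libraries left out singly. For RAW264.7 knockout labels this fold ranged over 1.28 to 1.69 with PBS and 1.69 to 1.74 with LPS. For BMDM knockout it was 1.21 to 1.24 and 1.13 to 1.20. For LPS against PBS in wild type cells it was 1.09 to 1.12 in RAW264.7 and 0.972 to 1.04 in BMDMs. Olfml3 ranged over 1.80 to 2.19 and 5.97 to 6.35 in RAW264.7 and -2.66 to -2.52 and -1.79 to -1.72 in BMDMs, where a pseudocount of 1 gave -0.31 with LPS. Replicate numbers are shared between groups. Deviations of same-numbered libraries had small correlations, from -0.0395 to 0.0844 in RAW264.7 and -0.0579 to 0.0711 in BMDMs. Of 12 libraries, 8 in RAW264.7 and 7 in BMDMs were closest to their own number out of 3, and whether this goes past chance was not tested. The replicate block gave 1 member with PBS and 42 with LPS for the RAW264.7 labels. Other causes of these shifts were not tested.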
